A study of Homo sapiens with 8 samples.

Results

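Adenylyl cyclases are the enzymes that make cyclic AMP. Their 10 human genes, ADCY1 to ADCY10, were followed in a pancreatic cancer cell line that was given an extra receptor. This receptor is able to restrain some of the enzymes. The genes were taken by symbol from a table of RSEM estimated counts for 58870 genes. All 10 had a row in it, 7 held enough counts to be tested, and 3 (ADCY2, ADCY8 and ADCY10) did not. The cells were CFPAC-1, an established line of human pancreatic ductal adenocarcinoma, and 8 samples of their RNA were sequenced. The 4 control samples carried an empty vector and the other 4 carried an ADRA2A transgene. Cells of both groups grew for 72 hours in IMDM with serum and antibiotics and received no drug. The promoter of the transgene, and whether the cells were a clone or a pool, were not given in the sources used here. Nor was it stated whether the samples of a group were separate cultures, so each p-value measures only the spread between these samples, which may be technical.

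Adenylyl cyclases turn ATP into cyclic AMP, which acts on protein kinase A, on the exchange factors EPAC1 and EPAC2 and on Popeye-domain proteins. ADCY1 to ADCY9 span the plasma membrane and are switched on by the alpha subunit of Gs. They differ in what else they respond to. ADCY1, ADCY3 and ADCY8 respond to calcium with calmodulin, ADCY2, ADCY4 and ADCY7 are raised by free G protein beta-gamma dimers, ADCY5 and ADCY6 are lowered by calcium and by the Gi alpha subunits, and ADCY9 is the least sensitive to the plant compound forskolin. ADCY10 is soluble and responds to bicarbonate. ADRA2A is the alpha-2A adrenergic receptor, which couples to Gi. In the ducts of the pancreas, secretin raises cyclic AMP through Gs and so drives bicarbonate secretion.

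Library totals lay between 14427035 and 17528915 counts. ADRA2A had 0 counts in the 4 vector libraries and 112 to 172 in the 4 transgene libraries. Of 8 ductal epithelial markers 7 were tested, with a summed 11710 to 12260 counts-per-million (CPM) in the vector libraries and 11710 to 12780 CPM in the transgene libraries. The eighth, the chloride channel gene CFTR, had 4 to 20 counts and was not tested. The endocrine markers INS, GCG, SST and CHGA were at 0 in every library, as was the T cell marker CD3E, and the 4 acinar markers summed to at most 0.792 CPM. The fibroblast list summed to 77.9 to 82.3 CPM in the vector libraries and 23.8 to 26.2 CPM in the transgene libraries, of which COL1A1 alone gave a mean of 78.4 ± 1.93 and 23.9 ± 1.22 CPM (SD, n = 4 each). The leukocyte list summed to 88.4 to 95 and 107.9 to 118.5 CPM, nearly all of it from CD68, and the endothelial list to 2.05 to 2.71 and 2.64 to 3.35 CPM. The part of these shifts in the values below was not tested. In bulk RNA, a change in the number of cells that express a gene and a change per cell cannot be told apart.

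The stretches of DNA in front of the genes that moved most are shown before their values, because these genes, from 3 regulatory classes, had the largest changes in level. Start sites from RefSeq (GRCh38.p14) were used for 7 of the 10 genes; those of ADCY6, ADCY8 and ADCY9 were not used here. Each sequence is the 250 bases that end just before a start site, on the strand of the gene. Capitals mark every match to one of 6 motifs, searched on both strands: the cyclic AMP response element TGACGTCA, its core TGACG (which the full element contains), the GC box GGGCGG, the CCAAT box CCAAT, the AP-1 site TGANTCA and the TATA box TATAAA.
ADCY5, outer start, chr3:123449091-123449340, minus strand: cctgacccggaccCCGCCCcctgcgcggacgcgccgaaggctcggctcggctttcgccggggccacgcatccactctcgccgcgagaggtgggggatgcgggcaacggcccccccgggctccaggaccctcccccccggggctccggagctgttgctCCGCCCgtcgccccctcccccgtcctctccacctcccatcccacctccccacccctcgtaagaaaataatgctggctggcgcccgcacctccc
ADCY5, inner start, chr3:123416343-123416592, minus strand: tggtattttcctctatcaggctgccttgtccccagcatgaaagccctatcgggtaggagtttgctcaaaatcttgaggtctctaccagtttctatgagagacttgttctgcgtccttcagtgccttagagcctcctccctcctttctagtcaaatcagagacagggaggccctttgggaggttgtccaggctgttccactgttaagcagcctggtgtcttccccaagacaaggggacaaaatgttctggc
ADCY4, chr14:24335072-24335321, minus strand: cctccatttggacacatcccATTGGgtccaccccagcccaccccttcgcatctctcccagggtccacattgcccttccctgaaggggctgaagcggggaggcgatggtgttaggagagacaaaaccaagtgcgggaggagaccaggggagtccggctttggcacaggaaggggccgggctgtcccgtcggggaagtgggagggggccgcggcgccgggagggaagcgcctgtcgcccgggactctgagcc
ADCY1, outer start, chr7:45573890-45574139, plus strand: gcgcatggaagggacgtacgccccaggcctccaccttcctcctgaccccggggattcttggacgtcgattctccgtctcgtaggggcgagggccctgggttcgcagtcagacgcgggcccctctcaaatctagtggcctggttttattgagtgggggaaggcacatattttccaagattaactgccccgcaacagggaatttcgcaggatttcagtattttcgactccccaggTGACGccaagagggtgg

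The start sites of ADCY5 lie 32748 bases apart and their flanks differ in composition. The outer one had 74.8% G and C, 27 CpG dinucleotides and 2 GC boxes, both read on the opposite strand, at positions -237 and -93 counted back from the start site. The inner one had 50.8% G and C, 2 CpG dinucleotides and no match to any of the 6 motifs. Gene-level counts do not say which of them was used. The ADCY4 flank had 67.2% G and C and a CCAAT box at -230, read on the opposite strand. The outer ADCY1 flank had 58.4% G and C, 16 CpG dinucleotides and the core of the cyclic AMP response element at -17. The flank of its inner start, chr7:45574118-45574367, which is not printed, had 75.6% G and C, 36 CpG dinucleotides, GC boxes at -151, -38 and -11 and the same core at -245. Across 35116 promoters of the same length in the RefSeq table, the median was 58.0% G and C with 11 CpG dinucleotides. A GC box was found in 42.6% of them, a CCAAT box in 32.0%, the core element in 21.2%, an AP-1 site in 6.57%, a TATA box in 10.7% and the full cyclic AMP response element in 1.65%. None of the 10 flanks of the 7 genes held the full element. A match is a string of letters and does not show that a factor binds there.

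Of the 7 genes tested, ADCY5, ADCY4, ADCY9 and ADCY6 were higher and ADCY1 was lower in the ADRA2A cells (quasi-likelihood test of edgeR, p-values adjusted over all 14785 genes tested by the Benjamini-Hochberg method, threshold 0.05). ADCY3 and ADCY7 did not pass. That is 5 of 7, where 42.7% of all tested genes passed, 21.6% as higher and 21.1% as lower. A call is thus common in this comparison and a count over 7 genes says little. ADCY1 entered the test through the vector group, where it was higher, and its call was lost when some single libraries were left out. The sizes ranged widely, from 3.73-fold higher for ADCY5 to 0.526-fold for ADCY1. ADCY5 and ADCY4 were both past 2-fold and adjusted p under 0.05, which 4.66% of all tested genes reached. The median log2 fold change of the 7 genes was 0.27, against 0.00 for all tested genes.

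**Figure D1:**
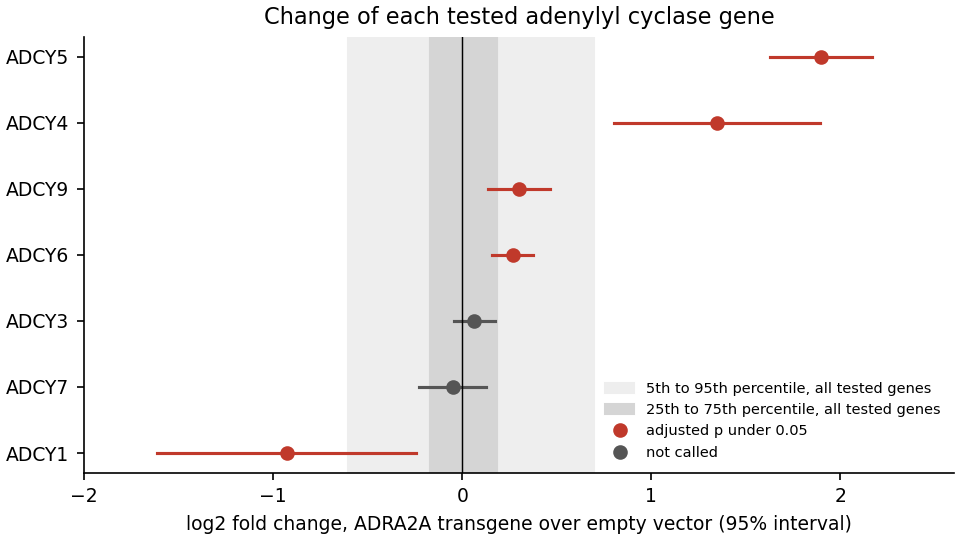
Log2 fold change of each tested adenylyl cyclase gene (x axis, ADRA2A transgene over empty vector) with its 95% interval from edgeR, over grey bands that hold the middle of all 14785 tested genes. ADCY5 at 1.90 and ADCY4 at 1.35 lie past the 95th percentile of all genes (0.69). ADCY1 at -0.93 lies below the 5th (-0.60) but entered the test through the group where it was higher. ADCY3 and ADCY7 lie within the inner band.

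The calcium-inhibited pair, ADCY5 and ADCY6, held both the largest change and the highest level of the family. ADCY5 (ENSG00000173175.14, chromosome 3, 123282296 to 123449090, minus strand) encodes a cyclase best known from striatum and heart. It had 71, 59, 55 and 83 counts in vector replicates 1 to 4, and 243, 233, 242 and 260 in ADRA2A replicates 1 to 4. Scaled to library size these were 4.16, 4.00, 3.20 and 5.43 CPM against 16.8, 15.4, 13.9 and 16.4 CPM. Every transgene library lay well above every vector library. The means were 4.20 ± 0.925 and 15.6 ± 1.33 CPM (SD, n = 4 each), with a log2 difference of 1.90, with an SE of 0.13 (adjusted p = 4.38e-10 by edgeR). Its 95% interval ran from 3.09-fold to 4.50-fold. By fold change ADCY5 ranked 76th from the top of the 14785 genes.

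ADCY6 (ENSG00000174233.11, chromosome 12, 48766194 to 48789089, minus strand) is the closest relative of ADCY5 and is made in most tissues. Vector replicates 1 to 4 had 69.7, 68.9, 61.6 and 68.9 CPM and ADRA2A replicates 1 to 4 had 83.9, 74.6, 80.8 and 84.5 CPM. No library of one group reached the other, and vector replicate 3 was the lowest. The means of 67.3 ± 3.78 and 81.0 ± 4.56 CPM (SD, n = 4 each) gave a log2 fold change of 0.27, with an SE of 0.05 (adjusted p = 0.000293 by edgeR), or 1.2-fold with a 95% interval of 1.12 to 1.30. So both members rose, by unequal amounts. Per kilobase of exon, ADCY5 stood at 5.70% ± 1.07 of the ADCY6 level in the vector libraries and at 17.7% ± 1.39 in the ADRA2A libraries (SD, n = 4 each), with no overlap (4.76% to 7.24% against 15.7% to 18.9%).

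Among the cyclases raised by beta-gamma dimers, ADCY4 rose, ADCY7 did not pass the test and ADCY2 was at the limit of detection. ADCY4 (ENSG00000129467.13, chromosome 14, 24318349 to 24335093, minus strand) had 34, 27, 12 and 21 counts in vector replicates 1 to 4 and 67, 46, 66 and 56 in ADRA2A replicates 1 to 4, or 1.99, 1.83, 0.697 and 1.37 CPM against 4.64, 3.04, 3.78 and 3.54 CPM. No vector library reached the lowest transgene library, although vector replicate 3 stood well below the other three. The log2 fold change was 1.35, with an SE of 0.26 (adjusted p = 0.000316 by edgeR), a 2.55-fold difference with a 95% interval of 1.74 to 3.72. Without vector replicate 3 the log2 fold change was 1.10 (edgeR adjusted p = 0.00101). At these counts, counting error alone gives a coefficient of variation of 20.6% in the vector group, where 39.3% was seen.

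ADCY7 (ENSG00000121281.12, chromosome 16, 50246137 to 50318135, plus strand), a cyclase prominent in blood cells, had 17.4 to 22.4 CPM in the vector libraries and 18 to 21.4 CPM in the ADRA2A libraries. These ranges overlapped throughout. Its log2 fold change was -0.05, with an SE of 0.08 (adjusted p = 0.657 by edgeR), and the 95% interval of 0.854-fold to 1.09-fold leaves room for small changes either way. ADCY2 (ENSG00000078295.16), a brain enzyme, had 1 count in ADRA2A replicate 3 and 0 in the other 7 libraries. A count of 0 allows up to 3 counts, which was 0.172 to 0.208 CPM depending on the library. Such limits cover counting error only.

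In the calcium/calmodulin-stimulated class the abundant member, ADCY3, did not pass the test and the scarce one, ADCY1, was lower. ADCY3 (ENSG00000138031.14, chromosome 2, 24819169 to 24920237, minus strand), known from olfactory neurons and primary cilia, had 45.5, 44, 45.3 and 44.2 CPM in vector replicates 1 to 4 and 42.9, 46.3, 49.6 and 48.3 CPM in ADRA2A replicates 1 to 4. ADRA2A replicate 1 lay below all vector libraries and the other 3 lay above them. The log2 fold change was 0.06, with an SE of 0.05 (adjusted p = 0.35 by edgeR), with a 95% interval of 0.969-fold to 1.13-fold. ADCY3 overlaps CENPO on the opposite strand and ADCY7 overlaps BRD7 on the opposite strand. Strand use in counting was not given in the sources used here, so reads in those overlaps may have been divided between the genes. CENPO had a log2 fold change of -0.15 and BRD7 of -0.06. An unnamed long noncoding RNA on the strand of ADCY4 overlaps that gene and had 1 to 9 counts.

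ADCY1 (ENSG00000164742.16, chromosome 7, 45574140 to 45723116, plus strand), a cyclase of neurons that senses calcium, was the one member called lower. It had 21, 21, 17 and 21 counts in the vector libraries and 14, 6, 13 and 8 in the ADRA2A libraries. The values of 0.988 to 1.43 CPM and 0.396 to 0.969 CPM did not overlap, but the nearest libraries of the groups were only a few counts apart. The log2 fold change was -0.93, with an SE of 0.33 (adjusted p = 0.0276 by edgeR). DESeq2 gave -0.94 with an adjusted p of 0.0552, and the call was also lost in edgeR when any of vector replicates 1, 2 or 4 or ADRA2A replicates 2 or 4 was left out, with adjusted p-values of 0.0512, 0.07, 0.0673, 0.0908 and 0.0822 in that order. All 4 vector libraries but only 2 of the 4 ADRA2A libraries reached the filter's minimum of 0.645 CPM, so ADCY1 entered the test through the group where it was higher. ADCY8 (ENSG00000155897.10), another neuronal cyclase, had 0 counts in all 8 libraries.

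ADCY9 (ENSG00000162104.10, chromosome 16, 3953387 to 4116442, minus strand), a widely made cyclase that the calcium phosphatase calcineurin can lower, had 21.3, 19.0, 18.8 and 20.3 CPM in vector replicates 1 to 4. ADRA2A replicates 1 to 4 had 24.5, 23.4, 22.1 and 27.9 CPM. The groups did not overlap. The log2 fold change was 0.30, with an SE of 0.08 (adjusted p = 0.00459 by edgeR), or 1.23-fold with a 95% interval of 1.10 to 1.38. Soluble ADCY10 (ENSG00000143199.17) had 3 counts in vector replicate 4, 1 in ADRA2A replicate 3 and 0 elsewhere, which is too few to compare. Counted over the tested members, 5 of 7 had groups without overlap, 4 of them higher and 1 lower. Among all tested genes 39.2% had groups without overlap (19.7% higher and 19.5% lower). The lower member, ADCY1, entered the test through the group where it was higher.

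**Figure D2:**
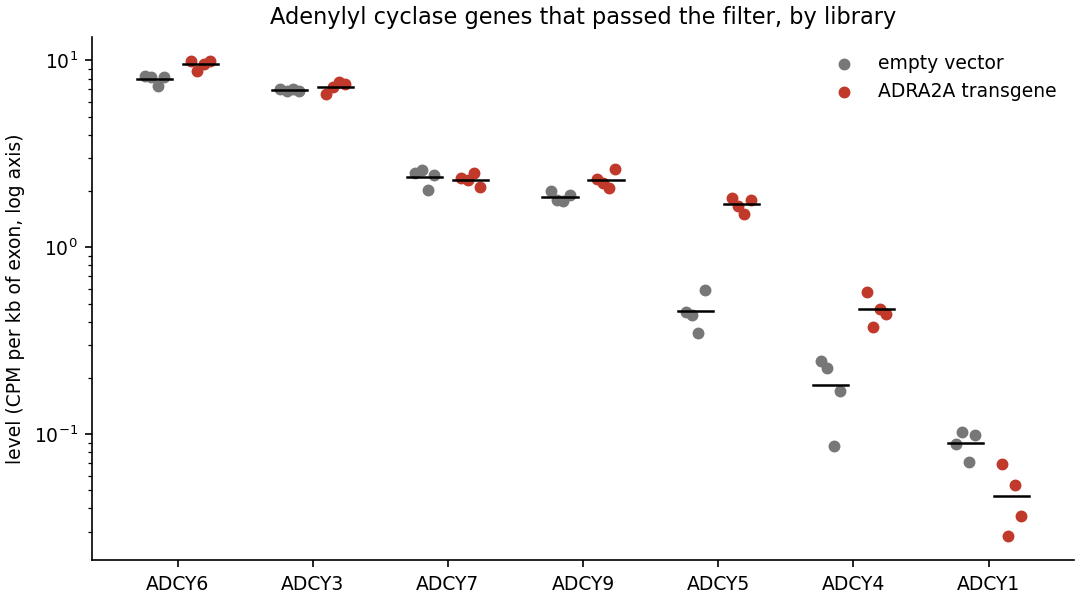
Level of each tested adenylyl cyclase gene in each library (y axis, CPM per kilobase of exon on a log axis), with grey points for the 4 vector libraries, red points for the 4 ADRA2A libraries and a black line at each group mean. The red points of ADCY5, from 1.5 to 1.82, sit far above the grey ones, from 0.347 to 0.589, while those of ADCY3 and ADCY7 overlap.

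Levels of different genes were compared per kilobase of the union of their annotated exons. In the vector libraries ADCY6 stood highest at 7.95 ± 0.447 CPM per kilobase, followed by ADCY3 at 6.94 ± 0.114, ADCY7 at 2.39 ± 0.253, ADCY9 at 1.87 ± 0.110, ADCY5 at 0.455 ± 0.10, ADCY4 at 0.183 ± 0.0719 and ADCY1 at 0.0898 ± 0.0140 (SD, n = 4 each). Neighbours in this order did not overlap in range, except ADCY4 with ADCY1. In the ADRA2A libraries ADCY6 and ADCY3 kept the top places at 9.57 ± 0.539 and 7.24 ± 0.450. ADCY9 at 2.30 ± 0.236 and ADCY7 at 2.30 ± 0.160 could no longer be ordered, since their ranges overlapped. ADCY5 followed at 1.70 ± 0.144, then ADCY4 at 0.465 ± 0.0829 and ADCY1 at 0.0468 ± 0.0183. So ADCY5 kept its place below ADCY7 and ADCY9 and above ADCY4 in both groups.

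The 10 genes together summed to 20.6, 20.1, 18.6 and 20.2 CPM per kilobase in vector replicates 1 to 4 and to 23.7, 22.6, 23.8 and 24.5 in ADRA2A replicates 1 to 4. The groups did not overlap, and the ratio of their means was 1.19. The calcium-inhibited pair made up 42.3% ± 0.906 of the sum in the vector libraries and 47.7% ± 1.53 in the ADRA2A libraries (SD, n = 4 each), again with no overlap. Within it the ADCY5 share went from 2.28% ± 0.447 to 7.18% ± 0.604, while that of ADCY6 was 40.0% ± 0.570 and 40.5% ± 1.19. The calcium/calmodulin-stimulated class, nearly all ADCY3, made up 35.4% ± 1.82 and 30.9% ± 1.83. Shares add to 100%, so the share of ADCY3 went down although its own level did not pass the test. The beta-gamma-stimulated class held 12.9% ± 1.15 and 11.7% ± 0.934, and ADCY9 held 9.40% ± 0.354 and 9.75% ± 0.830, both with overlap. Within the beta-gamma-stimulated class the members moved in opposite directions, each without overlap. The ADCY7 share went from 12.0% ± 0.843 to 9.75% ± 0.817, although its own level did not pass the test. That of ADCY4 went from 0.909% ± 0.334 to 1.965% ± 0.332 (SD, n = 4 each). These sums and shares are descriptions and were not tested.

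**Figure D3:**
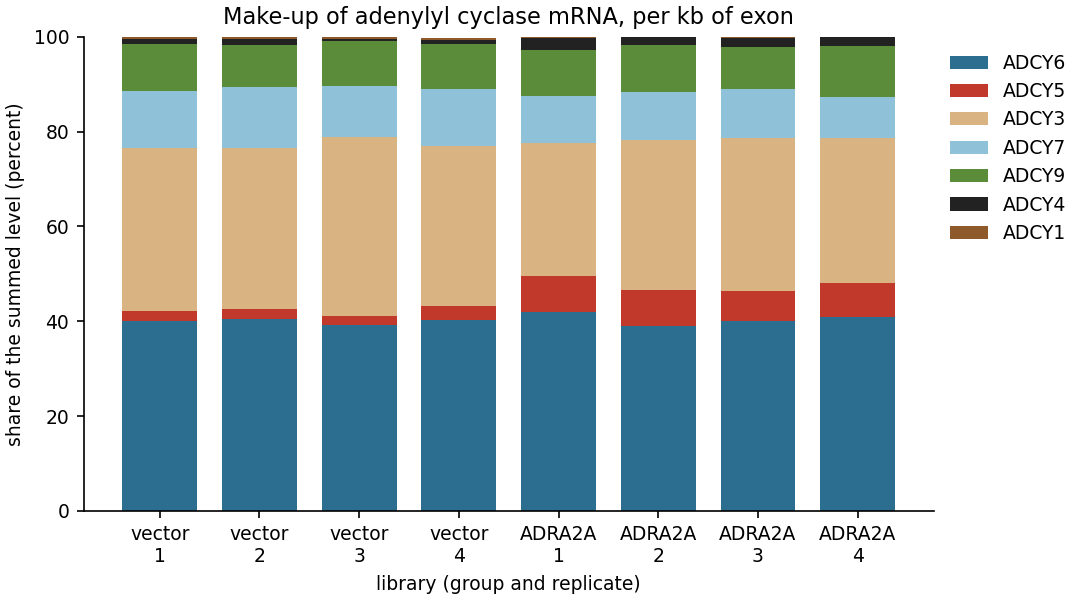
Share of each gene in the summed adenylyl cyclase level (y axis, percent of CPM per kilobase of exon) for each of the 8 libraries. The red ADCY5 segment is wider in all 4 ADRA2A libraries (mean 7.18%) than in the 4 vector libraries (mean 2.28%), and ADCY6 stays near 40% throughout.

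The chromosome around each gene was described with the 10 nearest tested genes on each side. Counts of calls among neighbours stand beside the 21.6% of all tested genes called higher and the 21.1% called lower. For ADCY5 the 20 neighbours had a median log2 fold change of 0.09, with 8 called higher and 4 called lower. MUC13, a membrane mucin gene, had the highest value among them at 2.59 and HEG1 the lowest at -1.08. The tested genes next to ADCY5 on either side, SEC22A and HACD2, had 0.10 and 0.02. For ADCY4 the median was 0.09, with 8 called higher and 2 lower. The tested genes next to ADCY4, RIPK3 on one side and LTB4R on the other, were both called higher. RIPK3, a kinase of necroptosis, had a log2 fold change of 0.43 (edgeR adjusted p = 0.000708), LTB4R, a leukotriene receptor, 0.54 (edgeR adjusted p = 0.00156). The next genes out, NFATC4 beyond RIPK3 and LTB4R2 beyond LTB4R, had 0.13 and 0.38 and were not called (edgeR adjusted p = 0.167 and 0.0829). Beyond LTB4R2 lay CIDEB, a lipid droplet protein gene, with 2.03 (edgeR adjusted p = 2.38e-05), and then NOP9, called lower with -0.20 (edgeR adjusted p = 0.0022). CIDEB reached the filter's minimum in 0 of 4 vector and 4 of 4 ADRA2A libraries, so it entered the test through the group where it was higher. These neighbours were named after their values were seen, and whether the genes moved as a block was not tested.

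For ADCY1 the 20 neighbours had a median of -0.09, with 9 called lower and 4 higher. Around ADCY6 and ADCY9 the medians were 0.04 and 0.07, below the changes of the genes themselves. Around ADCY3 the median was 0.14, with 8 called higher and 2 lower, above the 0.06 of ADCY3. The median around ADCY7 was -0.02.

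**Figure D4:**
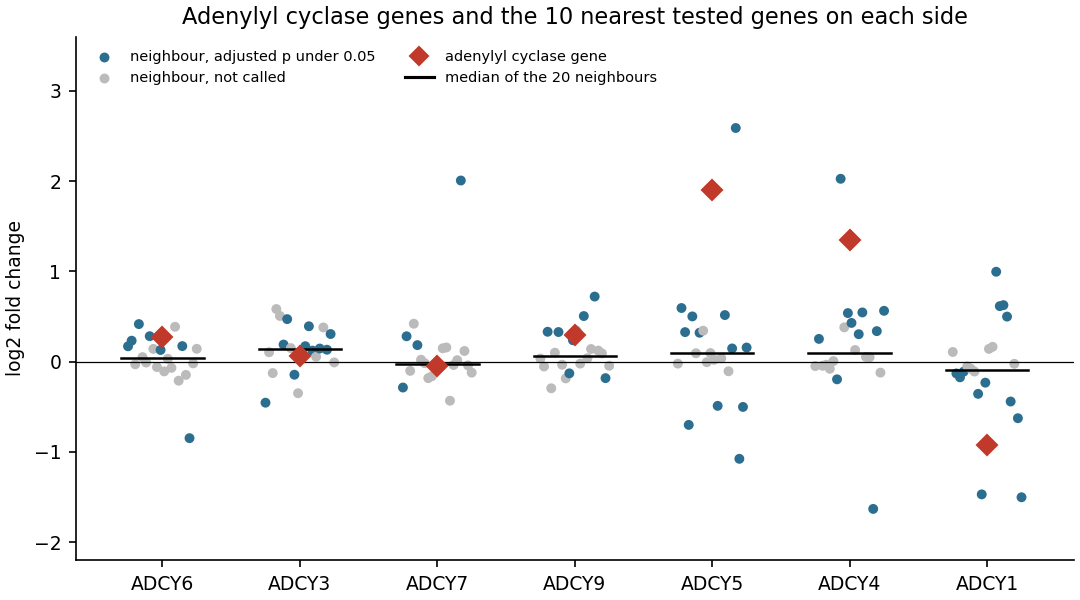
Log2 fold change (y axis) of each tested adenylyl cyclase gene (red diamond) and of the 10 nearest tested genes on each side (points, blue where the adjusted p was under 0.05), with a black line at the median of the 20 neighbours. The diamonds of ADCY5 (1.90) and ADCY4 (1.35) lie far above their neighbours' medians of 0.09. Each is still below its highest neighbour, MUC13 at 2.59 and CIDEB at 2.03. The diamonds of ADCY3 and ADCY7 lie near their neighbours' medians of 0.14 and -0.02.

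Genes linked to the cyclases or to their product were counted in 8 lists of 108 genes, of which 72 were tested. Of these 19 were higher and 24 lower (edgeR adjusted p under 0.05). Each count in the lists stands beside the shares over all tested genes, 21.6% higher and 21.1% lower, and in lists this short it shows nothing particular to a list. Of the genes of Gs and its receptors, 6 of 12 tested were lower and 2 higher (all tested genes: 21.1% and 21.6%), with a median log2 fold change of -0.26. Among the lower genes, ADORA2A reached the filter's minimum in all 4 vector libraries but in only 1 ADRA2A library. GLP1R, the receptor of the incretin GLP-1, went from 8.07 ± 1.05 to 3.91 ± 0.237 CPM (SD, n = 4 each), with a log2 difference of -1.04 (edgeR adjusted p = 3.6e-06). The prostaglandin E2 receptor gene PTGER4 had a log2 fold change of -0.52 (edgeR adjusted p = 9.08e-05). GNAS, the Gs alpha gene, was far more abundant and fell slightly, from 1004 ± 31.1 to 918 ± 16.7 CPM (SD, n = 4 each; log2 fold change -0.13, edgeR adjusted p = 0.00167). The secretin receptor gene SCTR rose from 1.51 ± 0.81 to 4.67 ± 1.46 CPM (SD, n = 4 each; log2 fold change 1.65, edgeR adjusted p = 0.000248). Its groups nearly met, at 2.51 CPM in the highest vector library and 2.58 CPM in the lowest ADRA2A library. The incretin receptor gene GIPR had a log2 fold change of 0.68 (edgeR adjusted p = 0.0137), and its groups overlapped. SCTR and GIPR were named after their values were seen.

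The Gi alpha subunits, which carry the receptor's signal to ADCY5 and ADCY6, gave 1 call among the 3 tested. GNAI1 rose from 57.9 ± 1.62 to 65.0 ± 1.70 CPM (SD, n = 4 each), with a log2 difference of 0.17 (edgeR adjusted p = 0.00463). GNAI2 had 153.1 ± 2.89 and 158.1 ± 2.67 CPM and GNAI3 had 178.3 ± 5.02 and 170.9 ± 3.0 CPM (SD, n = 4 each), and neither passed (edgeR adjusted p = 0.302 and 0.172). GNAO1 and GNAZ were not tested. Among beta and gamma subunits, 2 of 10 tested genes were higher and 2 lower, near the shares of all tested genes (21.6% and 21.1%), with a median of 0.00. GNG11 rose by 0.63 and GNG12 by 0.34 on the log2 scale, while GNB4 had -0.69 and GNG2 -0.77 (edgeR adjusted p between 2.15e-07 and 8.4e-07). GNG2 was named after its value was seen. The main beta genes GNB1 and GNB2 had -0.01 and -0.02 and were not called.

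Of the calmodulin, kinase and calcineurin genes, 3 of 11 tested were higher and 3 lower, near the shares of all tested genes (21.6% and 21.1%), with a median of -0.12. CALM2, a calmodulin gene, had a mean that went from 1094 ± 24.0 to 946 ± 27.1 CPM (SD, n = 4 each), with a log2 difference of -0.21 (edgeR adjusted p = 1.17e-05). PPP3CA, a catalytic subunit of calcineurin, had -0.36 (edgeR adjusted p = 5.88e-06) and the calmodulin kinase gene CAMK4 rose by 0.35 (edgeR adjusted p = 0.00013). The list of scaffolds and chaperones also holds protein kinase C genes. In it 4 of 13 were higher and 3 lower (all tested genes: 21.6% and 21.1%), with a median of 0.12. AKAP12, an anchoring protein that holds protein kinase A near membrane receptors, had the largest change, from 156.5 ± 3.81 to 51.7 ± 5.01 CPM (SD, n = 4 each; log2 fold change -1.60, edgeR adjusted p = 2.26e-14). The protein kinase C genes PRKCZ and PRKCA rose by 0.31 (edgeR adjusted p = 0.000661) and 0.24 (edgeR adjusted p = 0.00156).

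Of the cyclic AMP effector genes, 7 of 12 tested were lower and 1 higher (all tested genes: 21.1% and 21.6%), with a median of -0.11. They were listed because their proteins carry the signal of cyclic AMP, not because their expression responds to it. Without vector replicate 4, or without ADRA2A replicate 2, 4 were lower and 1 higher. RAPGEF3, which encodes EPAC1, rose from 24.7 ± 2.14 to 42.2 ± 2.59 CPM (SD, n = 4 each), with a log2 difference of 0.77 (edgeR adjusted p = 1.76e-08). BVES, a Popeye-domain gene, was at 7.24 ± 0.833 and 3.62 ± 0.192 CPM (SD, n = 4 each; log2 fold change -1.0, edgeR adjusted p = 7.77e-06). PRKAR2B, a regulatory subunit of protein kinase A, was scarce at 2.10 ± 0.280 and 0.503 ± 0.321 CPM (SD, n = 4 each; log2 fold change -2.03, edgeR adjusted p = 0.000102). It reached the filter's minimum in all 4 vector but only 2 ADRA2A libraries, so it was tested through the group where it was higher. The catalytic subunit gene PRKACA had -0.03 and was not called. PRKACB, another catalytic subunit gene, had -0.14 and was called lower (edgeR adjusted p = 0.0224). Both were named after their values were seen.

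Among the enzymes and the pump that remove cyclic AMP, 3 of 8 tested genes were higher and 3 lower (all tested genes: 21.6% and 21.1%), with a median of -0.10. Of the 3 lower genes, PDE10A and PDE8B reached the filter's minimum in all 4 vector libraries but in 2 and 0 ADRA2A libraries, so they were tested through the group where they were higher. PDE4A and PDE11A, also listed, were not analysed here. With a filter at a mean of 50 counts 1 was higher and 1 lower. PDE3A rose from 1.71 ± 0.311 to 4.30 ± 0.666 CPM (SD, n = 4 each; log2 fold change 1.34, edgeR adjusted p = 2.83e-05). PDE10A had a log2 fold change of -1.47 (edgeR adjusted p = 0.000642) and the exporter gene ABCC4 -0.35 (edgeR adjusted p = 9.98e-05). The guanylyl cyclases share the catalytic fold of the adenylyl cyclases and make cyclic GMP. The 3 that were tested all rose, where 21.6% of all tested genes did. GUCY1A1 and GUCY1B1, the subunits of the nitric oxide receptor, rose by 0.57 (edgeR adjusted p = 4.67e-07) and 0.25 (edgeR adjusted p = 0.000922), and the natriuretic peptide receptor gene NPR2 rose by 0.60 (edgeR adjusted p = 0.00456). The list holds 8 genes and 5 of them had too few counts to be tested.

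**Figure D5:**
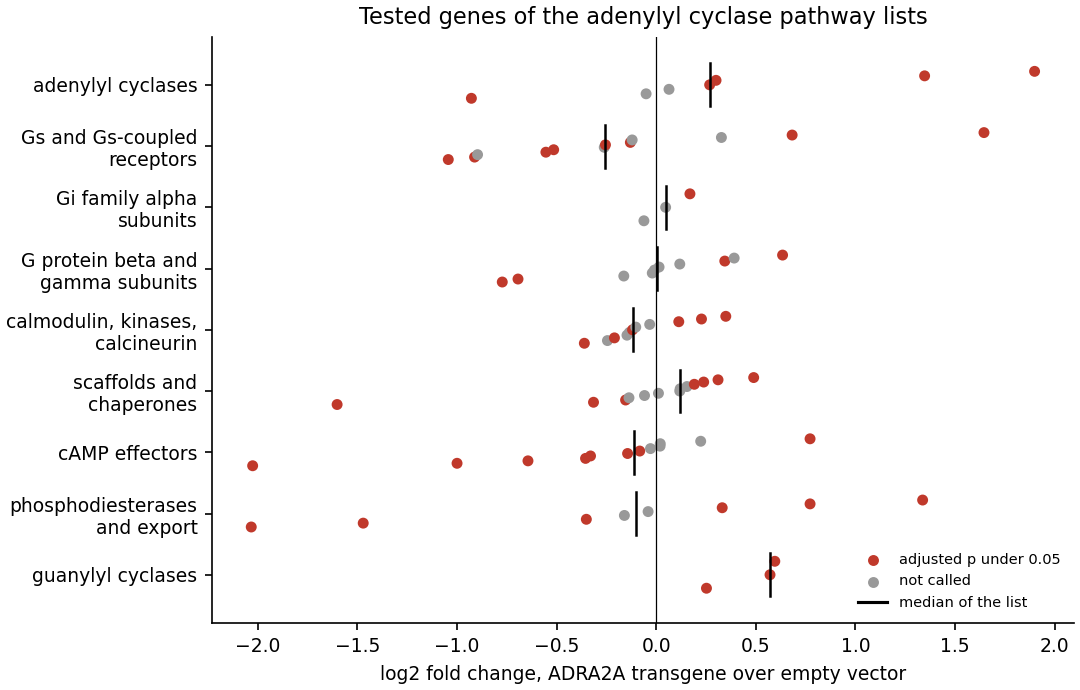
Log2 fold change (x axis, ADRA2A transgene over empty vector) of every tested gene of the adenylyl cyclase family and of 8 pathway lists (rows), red where the adjusted p was under 0.05, with a black line at the median of each list. The medians lie between -0.26 for Gs with its receptors and 0.57 for the guanylyl cyclases, and most lists have called genes on both sides of 0.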

How the data were processed

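RNA of 8 CFPAC-1 samples was isolated with TRIzol, per the labels' protocols, and read on a NextSeq instrument. The authors deposited a table of RSEM estimated counts per gene and sample, not scaled between samples. The submitters' processing notes name cutadapt, STAR, RSEM and DESeq2, without versions, and the build hg38. The annotation release and the strand setting were not given in the sources used here. Between 4.61% and 4.90% of the entries of a sample were not whole. All 8 columns were matched to samples by the name in the title. The members and gene lists were chosen with earlier results of these data known.

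Counts were rounded, filtered with filterByExpr of edgeR 4.0.16 (R 4.3.3) and scaled with its TMM factors, and CPM (counts-per-million) use the total of the tested genes. The groups were compared with edgeR's quasi-likelihood test in one fit of the 8 libraries with no term but the group, and p-values were adjusted by the Benjamini-Hochberg method. A gene was called at an adjusted p under 0.05. SE is the log2 fold change divided by the square root of F. The code of the fit was checked on simulated counts with known changes. These had far fewer changed genes than were called here and the same spread setting for every gene. That check therefore does not show how the test behaves on these data. No replicate pair agreed within counting noise (variance ratio 2.15 or more).

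Lengths and positions came from GENCODE 44 on GRCh38, matched for 99.4% of genes. Named were all 10 members, ADRA2A, GNAS, GNAI1 to GNAI3 and the 3 smallest p-values of each list, except 1 gene that is not reported here; other names are marked or mark range ends, markers and neighbours. Alternatives were DESeq2 1.42.0, RLE and upper quartile factors, limma 3.58.1 voom, other filters, a replicate block and leaving out each library.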

Additional observations from a re-analysis of the deposited data

Results flagged for a closer look

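The lowest of the 4 vector libraries stood apart from the other three for ADCY6. Vector replicate 3 had 61.6 CPM, below a narrow cluster of 68.9 to 69.7 CPM. In the same library the calcium/calmodulin-stimulated class held 38.1% of the summed adenylyl cyclase level, above the 34.4% to 34.7% of the other vector libraries. Of 24 groups of 4 values examined, these were the 2 that stood out in this way. Chance alone flags about 1 in 20 groups, but these 2 are not separate events. ADCY6 is part of the sum from which the class share is taken. Vector replicate 3 was also the lowest vector library for ADCY1, ADCY4, ADCY5, ADCY7 and ADCY9. Without it the log2 fold change of ADCY6 was 0.23 (edgeR adjusted p = 0.00145), that of ADCY5 1.78 (edgeR adjusted p = 1.79e-09) and that of ADCY9 0.27 (edgeR adjusted p = 0.0168).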

How the results depend on the processing

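In all, 332 of 347 recomputed values over 39 results kept their direction and their side of the threshold (or stayed near their value), and 0 reversed. Some of these could not have changed, since the scaling factor of a library cancels in its class shares. Counts, levels and shares also have no direction to reverse. A fall from 5 to 4 called members was counted as near its value, so the tally overstates how firm the results are. ADCY5, ADCY4, ADCY6 and ADCY9 were called under every alternative in which they were tested, with log2 fold changes of 1.78 to 2.04, 1.10 to 1.54, 0.23 to 0.31 and 0.23 to 0.35. ADCY1 was the exception, with -0.94 under DESeq2 (adjusted p = 0.0552) and -0.93 with no filter (adjusted p = 0.059), and -1.16 to -0.76 when 1 library was left out. Its adjusted p ran from 0.0165 to 0.0908 over its alternatives. With a filter at a mean of 50 counts, ADCY1 and ADCY4 were not tested, so 3 members were called in place of 5, and the list of phosphodiesterases and export had 2 calls in place of 6 because fewer genes were tested. The cyclic AMP effector list had 5 to 7 calls in place of 8 when 1 library was left out. Genes called among all tested numbered 6314, and 5703 to 6550 over the alternatives. With the length of the principal transcript in place of the exon union, the summed level was 27.0 in the vector and 32.4 in the ADRA2A libraries, the beta-gamma-stimulated share 12.9% in the ADRA2A libraries and the calcium-inhibited share 43.2% in the vector libraries; the lengths differ by construction.

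With the replicate number as a replicate block, 6400 genes were called and ADCY1 had an adjusted p of 0.0445. Same-numbered libraries deviated with correlations of -0.042 to 0.07. Such values cannot show whether samples of equal number shared a culture or a day, which was not given in the sources used here. At the depth used, changes in ADCY2, ADCY8 and ADCY10 were not detectable.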

Other observations

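Across the 8 libraries the tested genes whose log2 CPM ran most closely with ADCY6, the most abundant member, were CGN, which encodes the tight junction protein cingulin (Pearson r = 0.991), MFSD6 (0.988) and GIMAP2 (0.987). These are the 3 highest correlations among the tested genes, over libraries that share the group difference, and they are given as a description. CGN, MFSD6 and GIMAP2 had log2 fold changes of 0.16, 0.32 and 0.69.

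The pseudogene ADCY10P1 held more reads than ADCY10 itself, with 23 to 49 counts per library against 0 to 3. It had 2.57 ± 0.521 CPM in the vector libraries and 1.70 ± 0.307 CPM in the ADRA2A libraries (SD, n = 4 each), without overlap, and a log2 fold change of -0.59 (edgeR adjusted p = 0.049). It was looked at after the counts of ADCY10 were seen. Reads that fit both genes may have been divided between them.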
